A study of Mus musculus with 6 samples.

Results

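The kidney clears drugs, toxins and waste acids through membrane transporters of the tubule, and the genes described here are the members of 8 symbol families that carry such solutes: Slc22a (organic anions, organic cations, carnitine and urate), Slco (the organic anion transporting polypeptides, Oatp), Slc47a (the multidrug and toxin extruders, MATE), Slc10a and Slc51 (bile acids), Slc15a (small peptides), Slc16a (monocarboxylates) and Slc17a (organic anions, urate and phosphate). Every gene whose symbol starts with one of these names was taken, which gave 80 genes of the 23282 in the files. The families were proposed with earlier results of these data known, though the rule itself uses symbols alone. The choice also holds family members of other tissues, such as the testis and the brain.

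RNA was measured in whole kidneys of BALB/c mice and C57BL/6 (B6) mice, with 3 libraries per strain, each taken here as 1 mouse. The labels name no treatment, age, sex or transgene for either strain, so the comparison is by strain label alone. A difference in treatment, age or housing that went with strain could not be told apart from it. Libraries were made with a kit that primes on poly(A) tails (QuantSeq), so a read reports the 3′ end of a transcript and levels are given as CPM, read counts put on a common total per library and not divided by transcript length. The libraries held between 8310259 and 10416606 reads, and gene counts of libraries of the same strain varied 7.75 to 16.3 times as much as counting alone would give (chi-square over its degrees of freedom). The sample titles number the libraries of each strain as replicates. They do not say that each came from a separate mouse, and say nothing of litters, cages or harvest days.

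Organic anions enter the proximal tubule cell from the blood side through Oat1 (Slc22a6) and Oat3 (Slc22a8), which exchange them for dicarboxylates that sodium-coupled carriers hold at a high level inside the cell. Organic cations enter through carriers such as Oct2 (Slc22a2) down the membrane potential and leave into the urine through MATE1 (Slc47a1) in exchange for protons. On the urine side, Urat1 (Slc22a12) takes urate back, PEPT2 (Slc15a2) takes back small peptides and peptide-like drugs such as β-lactam antibiotics, and ABC pumps such as MRP2 (Abcc2) push conjugated anions out. Several of these transporters are known to depend on sex hormones in the mouse kidney.

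The promoters of 4 genes are shown because Slc22a8, Slc22a12 and Slc15a2 were the called organic anion, urate and peptide transporters with the most reads, and because Slc22a6 lies beside Slc22a8. Each is the RefSeq sequence (GRCm38.p6) from 250 bases before to 50 bases after the annotated start, 5′ to 3′ along the gene, and capitals mark the 50 bases from the annotated start onwards. The windows are chr19:8592932-8593231 (plus strand) for Slc22a8, chr19:8617746-8618045 (plus strand) for Slc22a6, chr19:6543021-6543320 (minus strand) for Slc22a12 and chr16:36784913-36785212 (minus strand) for Slc15a2.
Slc22a8: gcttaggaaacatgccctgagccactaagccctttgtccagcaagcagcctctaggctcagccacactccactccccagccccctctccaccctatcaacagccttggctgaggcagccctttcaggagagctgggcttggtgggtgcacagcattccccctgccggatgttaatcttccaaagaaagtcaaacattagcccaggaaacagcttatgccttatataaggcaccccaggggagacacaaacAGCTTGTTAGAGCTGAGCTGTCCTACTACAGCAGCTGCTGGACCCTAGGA
Slc22a6: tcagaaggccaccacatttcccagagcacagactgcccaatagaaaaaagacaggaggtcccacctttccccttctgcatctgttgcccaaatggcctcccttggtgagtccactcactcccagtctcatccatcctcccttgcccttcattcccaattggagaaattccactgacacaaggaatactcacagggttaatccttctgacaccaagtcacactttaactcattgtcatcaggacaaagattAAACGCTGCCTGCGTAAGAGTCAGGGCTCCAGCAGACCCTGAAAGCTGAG
Slc22a12: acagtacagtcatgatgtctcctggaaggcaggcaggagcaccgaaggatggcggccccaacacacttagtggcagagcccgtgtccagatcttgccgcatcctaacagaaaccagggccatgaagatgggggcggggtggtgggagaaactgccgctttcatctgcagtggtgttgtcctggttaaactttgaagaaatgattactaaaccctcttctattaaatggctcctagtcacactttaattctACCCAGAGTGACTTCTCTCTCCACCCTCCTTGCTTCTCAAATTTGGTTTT
Slc15a2: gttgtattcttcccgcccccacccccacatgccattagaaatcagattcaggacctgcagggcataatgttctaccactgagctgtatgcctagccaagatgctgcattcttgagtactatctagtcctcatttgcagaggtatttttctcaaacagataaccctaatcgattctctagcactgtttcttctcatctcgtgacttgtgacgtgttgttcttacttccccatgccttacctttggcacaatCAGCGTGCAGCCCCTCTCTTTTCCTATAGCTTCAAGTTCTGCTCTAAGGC

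RefSeq promoters were found for 63 of the 80 transporter genes and for 11 of the 13 genes called below.

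Of the 80 genes, 57 had enough reads to test, a log2(CPM + 1) of at least 1 in at least 3 libraries. limma was fitted over all 13317 genes that passed, and a gene was called at a Benjamini-Hochberg adjusted p under 0.05 over those genes. In BALB/c kidneys 10 transporter genes fell and 3 rose relative to B6 kidneys, which is 22.8% of the 57, where 9.09% of all genes tested were called, 4.93% as lower and 4.17% as higher. The 10 that fell were Slc16a5, Slc22a26, Slc15a2, Slc22a13, Slco3a1, Slc22a18, Slc22a12, Slc16a9, Slc22a19 and Slc22a8. The 3 that rose were Slc16a12, Slc51a and Slc22a17. The median log2 fold of BALB/c over B6 was -0.15 over the 57 genes and 0.0023 over all genes tested, and 37 of the 57 folds were negative, against 6605 of 13317.

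Across the 57 genes, 21 had CPM values that did not overlap between the strains, where 25.4% of all genes tested had none. The reads of the 80 genes together came to 4931, 4715 and 5092 CPM in BALB/c kidneys, against 5670.4, 5102 and 5782 CPM in B6 kidneys. The BALB/c sums all lay below the B6 sums, with B6 replicate 2 nearest to them. As a share of reads other than those of the 45S ribosomal RNA row, the genes took 0.580%, 0.561% and 0.599% in BALB/c kidneys, against 0.653%, 0.597% and 0.656% in B6 kidneys, where BALB/c replicate 3 and B6 replicate 2 overlap. Without the trend of the variance prior on expression level, 2 of the 13 calls held, Slc15a2 and Slc16a5, and the adjusted p of the other 11 lay between 0.108 and 0.353. In whole kidney RNA, fewer cells of a type and less RNA per cell cannot be told apart, and reads of both strains were aligned with the mm10 genome, which is that of B6, so a loss of BALB/c reads at sequence differences was not tested.

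Other processing choices ended further calls among the 13. Slc22a12 lost its call under total-read scaling, upper quartile scaling, a pseudocount of 0.25, no filter, a filter on a mean of at least 5 CPM, limma-voom and a robust prior (adjusted p between 0.0514 and 0.204). Slc51a lost it with a pseudocount of 0.25, with no filter and with limma-voom (adjusted p between 0.0504 and 0.140), Slc22a26 with no filter and with limma-voom (0.143 and 0.0796), and Slc16a9 with total-read scaling and with limma-voom (0.0504 and 0.0541). Slc22a13 and Slc22a17 lost it with no filter (adjusted p = 0.0776 and 0.108).

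**Figure D1:**
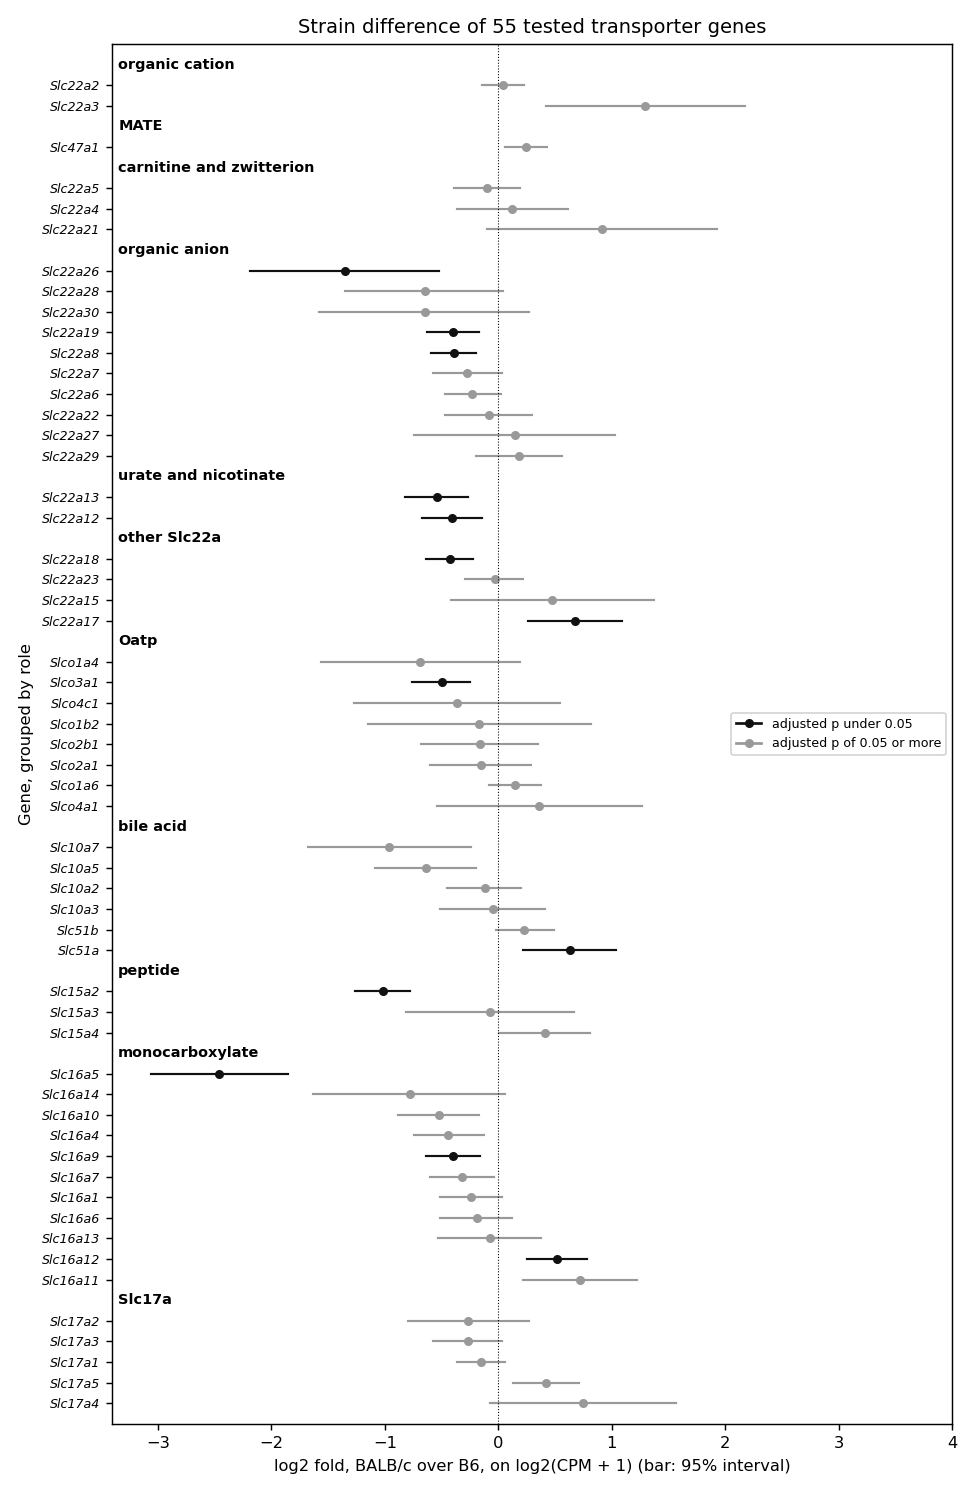
Strain difference as log2 fold, BALB/c over B6, from log2(CPM + 1) values (x axis, with 95% intervals) for 55 of the tested transporter genes (y axis), grouped by role (the other 2 are not reported here); black marks an adjusted p under 0.05. Of the called genes, Slc16a5 at -2.46, Slc22a26 at -1.35 and Slc15a2 at -1.02 lie farthest to the left, and Slc22a2 lies at 0.04.

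None of the 3 organic cation carriers was called, and Slc22a2 had the highest mean CPM of the 80 genes. Oct2, encoded by Slc22a2 (chr17:12584132-12628488), had 575, 542 and 621 CPM in BALB/c kidneys, against 593, 525 and 568 CPM in B6 kidneys. Its values overlapped, with a log2 fold of 0.04 ± 0.09 (SE) whose 95% interval ran from -0.14 to 0.23 (limma, adjusted p = 0.842). The interval bounds the difference and does not show that the strains have the same level.

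MATE1, the proton exchanger that completes cation secretion, is encoded by Slc47a1 (chr11:61343401-61378345). It had 394, 399 and 436 CPM in BALB/c kidneys, against 338, 368 and 332 CPM in B6 kidneys, and all BALB/c values lay above all B6 values. The log2 fold of 0.24 ± 0.09 did not pass the test over all genes (limma, adjusted p = 0.101), and without B6 replicate 2 it did, at 0.29 with an adjusted p of 0.0460. Its paralog Slc47a2 had no read in any library, a count that allows up to 3 reads in each.

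Oct3, the cation transporter of many tissues outside the tubule, is encoded by Slc22a3 and stood close to the limit of detection. It had 15, 22 and 14 reads in BALB/c kidneys, against 4, 0 and 0 reads in B6 kidneys. The BALB/c libraries were the higher ones without overlap, and it was the only tested transporter gene that passed the filter through 1 strain, so a difference was built into its entry. Its log2 fold of 1.29 ± 0.42 missed the threshold (limma, adjusted p = 0.0571) and passed it with limma-voom, without a filter and without the trend in the prior. Its exons overlap those of Plg, plasminogen, which had at most 1.01 CPM in a library.

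Of 10 organic anion carriers of the Slc22a family tested, 3 fell in BALB/c kidneys, none rose and the median log2 fold was -0.34. Over all genes tested 9.09% were called, the share to set beside this count and the family counts below. Families of a few genes are too small to compare with it. Oat3, encoded by Slc22a8 (chr19:8591254-8611835, plus strand), whose promoter is printed above, had 373, 365 and 446 CPM in BALB/c kidneys, against 546, 512 and 494 CPM in B6 kidneys. The printed window follows the RefSeq start and lies inside this gene interval, which is GENCODE's and starts at a lower coordinate. All BALB/c values lay below all B6 values, although BALB/c replicate 3 came within reach of B6 replicate 3. The mean was 395 ± 44.6 CPM in BALB/c kidneys and 517 ± 26.6 CPM in B6 kidneys (SD, n = 3 each). Slc22a8 thus ran at 76.3% of its B6 mean, with a log2 fold of -0.39 ± 0.09 (limma, adjusted p = 0.00812). Leaving out BALB/c replicate 1, BALB/c replicate 2 or B6 replicate 1 took the adjusted p to 0.0747, 0.0659 and 0.0677.

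Its neighbour Oat1, encoded by Slc22a6 (chr19:8618039-8628299, plus strand), had 252, 275 and 307 CPM in BALB/c kidneys, against 375, 257 and 356 CPM in B6 kidneys. B6 replicate 2 lay among the BALB/c values while the other 2 B6 libraries lay above them. The log2 fold was -0.23 ± 0.12 with a 95% interval from -0.47 to 0.02 (limma, adjusted p = 0.277). Without B6 replicate 2 it was -0.40 with an adjusted p of 0.00861, so whether Slc22a6 is called depends on that library. Oat2, a carrier of small anions and nucleotides encoded by Slc22a7, had 58.5, 39.9 and 60.8 CPM in BALB/c kidneys, against 62.5, 59.6 and 68.4 CPM in B6 kidneys. These ranges overlapped, and it was not called (limma, log2 fold -0.28, adjusted p = 0.295).

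At lower coordinates than Oat1 and Oat3 on chromosome 19 lies a cluster of rodent Slc22a genes. Oat5, encoded by Slc22a19 (chr19:7673061-7711310, minus strand) and known as an apical exchanger of steroid sulfates, had 94.9, 87.5 and 91.5 CPM in BALB/c kidneys, against 133, 109 and 121 CPM in B6 kidneys. The BALB/c values lay close together and below every B6 value. Slc22a19 fell by 0.40 on the log2 scale (SE 0.11; limma, adjusted p = 0.0224). The call was lost without BALB/c replicate 1 (adjusted p = 0.0553), BALB/c replicate 2 (0.0899), BALB/c replicate 3 (0.0512), B6 replicate 1 (0.142) or B6 replicate 3 (0.0535).

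Slc22a26 (chr19:7781041-7802667, minus strand), of the same cluster, had few reads: 2.90, 3.54 and 0.702 CPM in BALB/c kidneys, against 8.69, 3.63 and 10.2 CPM in B6 kidneys. B6 replicate 2 stood only just above BALB/c replicate 2. The log2 fold was -1.35 ± 0.40 (limma, adjusted p = 0.0351). Without BALB/c replicate 1, BALB/c replicate 3, B6 replicate 1 or B6 replicate 3 the adjusted p was 0.0531, 0.171, 0.162 and 0.169. In the same cluster Slc22a29 had 28.4, 28.2 and 32.7 CPM in BALB/c kidneys, against 34.6, 21.4 and 24.0 CPM in B6 kidneys, with overlap and no call (limma, adjusted p = 0.643). The other tested members of the cluster, Slc22a27, Slc22a28 and Slc22a30, were not called either.

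Both tested Slc22a carriers of urate and nicotinate fell. Urat1, the urate exchanger encoded by Slc22a12 (chr19:6535845-6543032, minus strand), had 490.1, 455 and 440.4 CPM in BALB/c kidneys, against 657, 454 and 769 CPM in B6 kidneys. B6 replicate 2 lay among the BALB/c values, so the strains overlapped. The means were 462 ± 25.6 CPM in BALB/c kidneys and 627 ± 159.7 CPM in B6 kidneys (SD, n = 3 each), with a log2 fold of -0.41 ± 0.13 (limma, adjusted p = 0.0479). Without B6 replicate 2 the fold was -0.62 with an adjusted p of 1.88e-05. Without B6 replicate 1 the adjusted p was 0.214, without B6 replicate 3 the fold was -0.24 with an adjusted p of 0.257, and without BALB/c replicate 1, 2 or 3 the adjusted p was 0.101, 0.130 and 0.115. Exons of Slc22a12 overlap those of Nrxn2, which was not called (limma, log2 fold -0.0033, adjusted p = 0.995).

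OAT10, a urate and nicotinate exchanger known from human and rat, is encoded by Slc22a13 (chr9:119192974-119209098, minus strand). It had 109.6, 114 and 147 CPM in BALB/c kidneys, against 149, 227 and 171 CPM in B6 kidneys. The strains did not overlap, though BALB/c replicate 3 almost reached B6 replicate 1, and here B6 replicate 2 was the highest library rather than the lowest. Slc22a13 ran at 68.0% of its B6 mean, with a log2 fold of -0.54 ± 0.13 (limma, adjusted p = 0.0102). Without BALB/c replicate 1, BALB/c replicate 2 or B6 replicate 2 the adjusted p was 0.0902, 0.0561 and 0.0578.

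**Figure D2:**
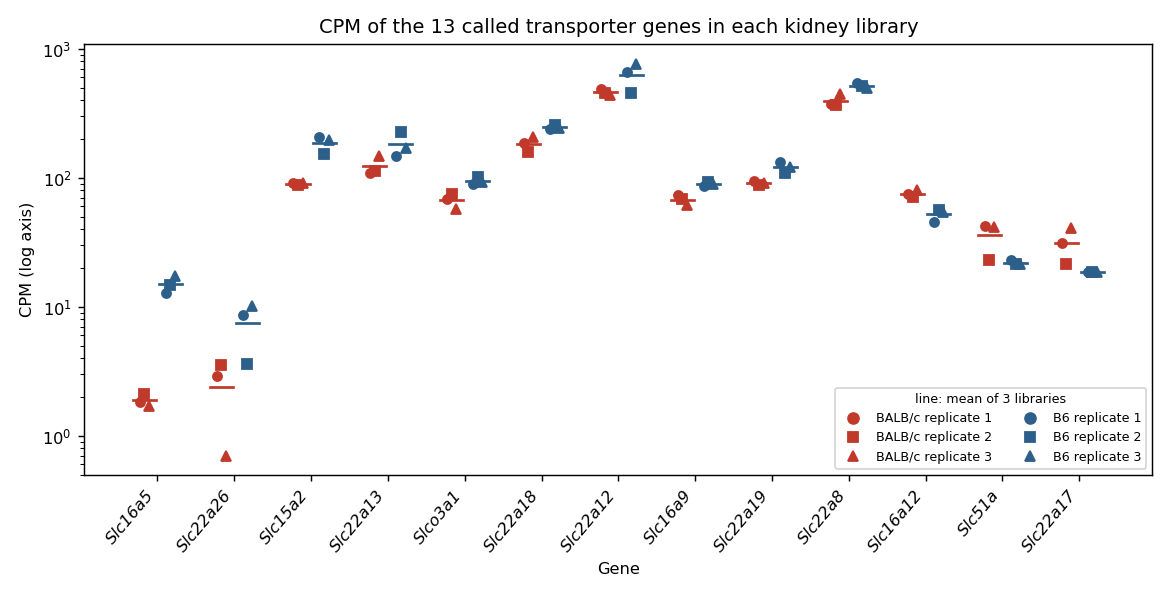
CPM on a log axis (y) of the 13 called transporter genes (x) in each library, BALB/c in red on the left and B6 in blue on the right of each gene, with shapes for replicates and a line for the mean of 3 libraries. Slc16a5 averages 1.89 CPM in BALB/c kidneys and 14.9 CPM in B6 kidneys; Slc22a12 is the only called gene whose strains overlap.

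The Slc22a carriers of carnitine and zwitterions gave no call among 3 tested. Octn2, the sodium-carnitine cotransporter encoded by Slc22a5, had 66.7, 49.1 and 54.0 CPM in BALB/c kidneys, against 59.1, 53.6 and 68.7 CPM in B6 kidneys. These values overlapped (limma, log2 fold -0.10, adjusted p = 0.758). Octn1, the ergothioneine carrier encoded by Slc22a4, likewise overlapped between the strains, with a log2 fold of 0.12 and an interval from -0.36 to 0.61. Slc22a5 shares 72.5% of its 50-base words in the last 300 bases with Slc22a21, so reads of these genes may be split between them.

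Among Slc22a genes with other or unknown cargo, 1 rose and 1 fell of 4 tested. Slc22a18 (chr7:143473736-143499334), an organic cation transporter-like gene of an imprinted region, had 186, 159.8 and 207 CPM in BALB/c kidneys, against 241, 259 and 242 CPM in B6 kidneys. The ranges did not overlap, and the B6 values were close together. Slc22a18 fell by 0.43 on the log2 scale (SE 0.10; limma, adjusted p = 0.00826), a call lost without BALB/c replicate 2 (adjusted p = 0.0809). Slc22a17 (chr14:54906304-54913132), a receptor for lipocalin 2, had 31.4, 21.6 and 40.8 CPM in BALB/c kidneys, against 18.6, 18.6 and 18.5 CPM in B6 kidneys. The B6 values were almost equal and the BALB/c values were spread widely above them. Slc22a17 rose by 0.68 ± 0.20 on the log2 scale (limma, adjusted p = 0.0367). Without BALB/c replicate 1 the adjusted p was 0.126, and without BALB/c replicate 3 it was 0.227 at a fold of 0.47. It was 0.102 without B6 replicate 1, 0.0555 without B6 replicate 2 and 0.0770 without B6 replicate 3.

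Among 3 peptide carriers tested, 1 fell and none rose. PEPT2, encoded by Slc15a2 (chr16:36750177-36784962, minus strand), had 91.3, 88.6 and 91.2 CPM in BALB/c kidneys, against 209, 152 and 197 CPM in B6 kidneys. All BALB/c values lay below all B6 values, and B6 replicate 2 was the lowest of its strain. The means were 90.3 ± 1.53 CPM in BALB/c kidneys and 186 ± 30.3 CPM in B6 kidneys (SD, n = 3 each), so that BALB/c kidneys held 48.6% of the B6 level. The log2 fold was -1.02 ± 0.12 (limma, adjusted p = 1.54e-06). It stayed between -1.16 and -0.93 with each library left out in turn, and Slc15a2 was called in all 17 alternative analyses. PEPT1, the intestinal form encoded by Slc15a1, had too few reads to test: 4, 4 and 1 in BALB/c kidneys, against 2, 0 and 0 in B6 kidneys. Of the other 2 tested Slc15a genes, which move peptides and histidine out of lysosomes, neither was called.

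Of the monocarboxylate carriers, 2 fell and 1 rose among 12 tested, and the median log2 fold was -0.28. MCT6, encoded by Slc16a5 (chr11:115462474-115474398, plus strand) and known in human to carry drugs such as bumetanide, had 1.84, 2.12 and 1.70 CPM in BALB/c kidneys, against 12.8, 14.7 and 17.3 CPM in B6 kidneys. These values rest on 19, 18 and 17 reads in BALB/c kidneys, against 116, 146 and 154 reads in B6 kidneys. The strains were far apart, with BALB/c kidneys at 12.7% of the B6 mean. The log2 fold was -2.46 ± 0.29 on the log2(CPM + 1) scale, which understates changes at such low levels (limma, adjusted p = 2.68e-06). It lay between -2.55 and -2.35 with each library left out, and Slc16a5 was called in all 16 alternatives that tested it. An unnamed gene model, Gm11695, which has no row in the files, overlaps its exons.

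MCT9, a carnitine carrier in human encoded by Slc16a9 (chr10:70245100-70285968, plus strand), had 74.1, 68.1 and 61.5 CPM in BALB/c kidneys, against 86.7, 92.7 and 89.8 CPM in B6 kidneys. The BALB/c values all lay below the B6 values. Slc16a9 fell by 0.40 on the log2 scale (SE 0.12; limma, adjusted p = 0.0321). The adjusted p was 0.0801 without BALB/c replicate 2, 0.135 without BALB/c replicate 3, 0.0755 without B6 replicate 1, 0.0748 without B6 replicate 2 and 0.0709 without B6 replicate 3. Its 3′ end shares 82.4% of its words with Gm9877, which has no row in the files.

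MCT12, a creatine carrier encoded by Slc16a12 (chr19:34668403-34747289, minus strand), went the other way. It had 74.5, 70.9 and 80.0 CPM in BALB/c kidneys, against 45.7, 56.8 and 54.8 CPM in B6 kidneys. All BALB/c values lay above all B6 values. Slc16a12 rose by 0.52 ± 0.13 on the log2 scale (limma, adjusted p = 0.0105), with an adjusted p of 0.0506 without BALB/c replicate 3 and of 0.0817 without B6 replicate 1.

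The lactate and pyruvate carriers of the family were not called: the log2 fold was -0.24 ± 0.13 for Slc16a1 (MCT1; limma, adjusted p = 0.301) and -0.32 ± 0.14 for Slc16a7 (MCT2; limma, adjusted p = 0.168). The aromatic amino acid carrier TAT1, encoded by Slc16a10, had 24.8, 29.1 and 32.9 CPM in BALB/c kidneys, against 38.5, 53.4 and 35.4 CPM in B6 kidneys. Its BALB/c values lay below its B6 values without overlap, but it missed the threshold (limma, log2 fold -0.52, adjusted p = 0.0571). It passed at an adjusted p of 0.0438 without BALB/c replicate 3 and of 0.0347 without B6 replicate 3. Slc16a4, a family member of unsettled cargo, likewise passed only without B6 replicate 2 (limma, adjusted p = 0.0669 with all libraries and 0.0294 without it).

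**Figure D3:**
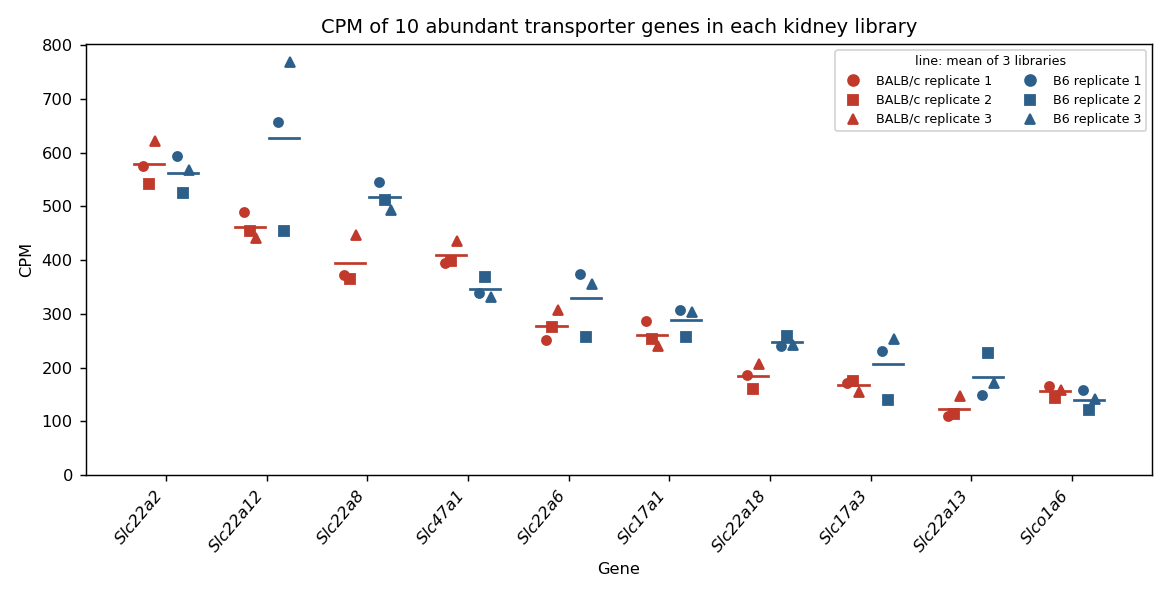
CPM (y axis, from 0) of 10 transporter genes with high mean CPM (x axis) in each library, BALB/c in red on the left and B6 in blue on the right of each gene, with a line for the mean of 3 libraries. Slc22a8 and Slc22a18 lie lower in all BALB/c libraries, Slc47a1 lies higher, and B6 replicate 2 (square) sits below the other B6 libraries for Slc22a12, Slc22a6 and Slc17a3.

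Bile acid carriers gave 1 call among 6 tested Slc10a and Slc51 genes, where 9.09% of all genes tested were called. Slc51a (chr16:32474504-32487879, minus strand) encodes OST-α, which with OST-β exports bile acids and steroid conjugates across the basolateral membrane. It had 42.3, 23.1 and 41.9 CPM in BALB/c kidneys, against 22.9, 21.5 and 21.5 CPM in B6 kidneys. BALB/c replicate 2 lay just above the B6 values and the other 2 BALB/c libraries well above them. Slc51a rose by 0.63 ± 0.20 on the log2 scale (limma, adjusted p = 0.0497). Without BALB/c replicate 2 the fold was 0.91 with an adjusted p of 0.00247. Without BALB/c replicate 1 or 3 the adjusted p was 0.251 and 0.207, and without B6 replicate 1, 2 or 3 it was 0.111, 0.0822 and 0.107.

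All of the words at the Slc51a 3′ end are shared with the overlapping gene Pcyt1a, so its reads cannot be assigned to it with certainty. Pcyt1a had 60.7, 67.4 and 62.9 CPM in BALB/c kidneys, against 84.7, 76.0 and 86.2 CPM in B6 kidneys, the opposite direction to Slc51a. OST-β, encoded by Slc51b, had 153, 146 and 125 CPM in BALB/c kidneys, against 119.7, 99.9 and 144 CPM in B6 kidneys. Its values overlapped (limma, log2 fold 0.23, adjusted p = 0.289). Asbt, the sodium-coupled bile acid carrier of the apical side encoded by Slc10a2, had 49.5, 47.9 and 50.2 CPM in BALB/c kidneys, against 60.6, 39.8 and 63.8 CPM in B6 kidneys. B6 replicate 2 lay below the BALB/c values and the other B6 libraries above them, with no call (limma, log2 fold -0.12, adjusted p = 0.723). Slc10a7, a family member not known to carry bile acids, missed the threshold (limma, log2 fold -0.96, adjusted p = 0.0898) and passed it without BALB/c replicate 3 (adjusted p = 0.0463). The liver carrier Ntcp, encoded by Slc10a1, had 7, 3 and 5 reads in BALB/c kidneys, against 2, 0 and 1 reads in B6 kidneys, too few to test.

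Of the Oatp genes 8 of 15 could be tested, and 1 fell, which is 12.5%, near the 9.09% of all genes tested that were called. Slco3a1 (chr7:74275419-74554780, minus strand), a carrier of prostaglandins and other anions, had 68.9, 74.3 and 57.1 CPM in BALB/c kidneys, against 89.5, 101 and 93.3 CPM in B6 kidneys. The ranges did not overlap. Slco3a1 fell by 0.50 on the log2 scale (SE 0.12; limma, adjusted p = 0.00957), a call lost without BALB/c replicate 3 (adjusted p = 0.0650). Slco1a6, an Oatp of mouse kidney, had 165, 143 and 159 CPM in BALB/c kidneys, against 158, 122 and 142 CPM in B6 kidneys, with overlap and no call (limma, log2 fold 0.15, adjusted p = 0.476). Slco2b1 was not called (limma, log2 fold -0.16, adjusted p = 0.779). Slco4c1, whose human form carries digoxin, had 13, 14 and 11 reads in BALB/c kidneys, against 7, 51 and 13 reads in B6 kidneys, with B6 replicate 2 far above the rest. Slco1a1, which is known to be high in male mouse kidney, had 0, 4 and 0 reads in BALB/c kidneys, against 5, 0 and 0 reads in B6 kidneys.

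No gene of the Slc17a family was called among 5 tested. NPT1, a urate and phosphate carrier encoded by Slc17a1, had 287, 254 and 241 CPM in BALB/c kidneys, against 307, 257 and 304 CPM in B6 kidneys, which overlap (limma, log2 fold -0.15, adjusted p = 0.421). NPT4, an anion and urate carrier encoded by Slc17a3, had 172, 175 and 154 CPM in BALB/c kidneys, against 231, 139 and 253 CPM in B6 kidneys. B6 replicate 2 was the lowest of all 6 libraries and the other B6 libraries were the highest. The log2 fold was -0.27 (limma, adjusted p = 0.304), and without B6 replicate 2 it was -0.54 with an adjusted p of 7.37e-04. Sialin, the lysosomal sialic acid exporter encoded by Slc17a5, had 66.7, 60.7 and 74.2 CPM in BALB/c kidneys, against 46.7, 44.0 and 60.6 CPM in B6 kidneys. Its lowest BALB/c value was just above its highest B6 value, and it missed the threshold (limma, log2 fold 0.42, adjusted p = 0.0677), passing it without B6 replicate 3 (adjusted p = 0.0177).

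The 23 genes that were not tested had at most 17 reads in a library, and 11 of them had no read in any library: Slco5a1, Slco6b1, Slco6c1, Slco6d1, Slc22a16, Slc22a20, Slc47a2, Slc10a4, Slc15a5, Slc17a6 and Slc17a7. Among the others, Slc16a3 (MCT4, a lactate exporter) had 1, 6 and 8 reads in BALB/c kidneys, against 8, 17 and 17 reads in B6 kidneys. Slc22a14 had 0, 0 and 0 reads in BALB/c kidneys, against 7, 1 and 7 reads in B6 kidneys. The pseudogene Slc22a13b-ps had 15, 10 and 8 reads in BALB/c kidneys, against 3, 3 and 4 reads in B6 kidneys. These counts are given without a test.

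Lists of 41 genes that work beside these carriers (efflux pumps, counter-substrate and ion gradient genes, scaffolds and chaperones, and regulators) gave 2 genes higher and 6 lower in BALB/c kidneys among 39 tested. Over all genes tested, 4.17% were called higher and 4.93% lower, the shares to set beside this count and those of the single lists below. The lists were chosen with earlier results of these data known. Of 9 efflux pumps tested, 1 rose and 2 fell. MRP2, encoded by Abcc2, had 62.9, 45.0 and 60.3 CPM in BALB/c kidneys, against 179.6, 164 and 155 CPM in B6 kidneys. The strains were far apart, and Abcc2 fell by 1.56 on the log2 scale (SE 0.13; limma, adjusted p = 5.57e-09), a call kept in all 17 alternatives. The multidrug pump gene Abcb1b had 41.1, 53.1 and 37.5 CPM in BALB/c kidneys, against 26.6, 22.7 and 23.5 CPM in B6 kidneys, all BALB/c values being higher. Abcb1b rose by 0.82 ± 0.16 on the log2 scale (limma, adjusted p = 0.00187). Abcc5 fell (limma, log2 fold -0.73, adjusted p = 0.0443), with an adjusted p of up to 0.227 in the runs without BALB/c replicate 1, BALB/c replicate 2, B6 replicate 2 or B6 replicate 3, which lost the call. That call held in 8 of 17 alternatives and was also lost under total-read scaling, no filter and limma-voom. Abcc4 was not called (limma, log2 fold -0.43, adjusted p = 0.0876).

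Of 9 genes of counter-substrates and gradients, 1 rose and 1 fell. The low-affinity sodium-lactate cotransporter gene Slc5a12 rose by 1.22 ± 0.11 on the log2 scale (limma, adjusted p = 2.39e-08). Its high-affinity relative Slc5a8, which also moves nicotinate, fell by 0.66 (SE 0.16; limma, adjusted p = 0.0101), with an adjusted p of up to 0.0858 without BALB/c replicate 2 or B6 replicate 2, which lost the call, as did the run with no filter. The urate carrier gene Slc2a9 and the phosphate carrier gene Slc34a1 were not called (limma, log2 folds -0.45 and -0.25, adjusted p = 0.210 and 0.112).

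Of 6 scaffold and chaperone genes, 2 fell, and both encode PDZ proteins of the brush border that bind the tails of apical transporters such as Urat1. NHERF1, encoded by Slc9a3r1, had 38.7, 43.0 and 58.5 CPM in BALB/c kidneys, against 86.7, 85.6 and 87.6 CPM in B6 kidneys. PDZK1 had 624, 592 and 702 CPM in BALB/c kidneys, against 821, 774 and 889.8 CPM in B6 kidneys. For both genes every BALB/c value was lower, with log2 folds of -0.90 ± 0.14 for Slc9a3r1 (limma, adjusted p = 1.17e-04) and -0.37 ± 0.09 for Pdzk1 (limma, adjusted p = 0.00989). The Pdzk1 call was lost without BALB/c replicate 1 or BALB/c replicate 2 (adjusted p up to 0.0816). NHERF2, a related PDZ scaffold of the same list encoded by Slc9a3r2, did not fall and was not called (limma, log2 fold 0.12, adjusted p = 0.716). Emb, which encodes a chaperone of MCT2, and the PDZK1 partner gene Pdzk1ip1 were not called (limma, log2 folds 0.25 and 0.15, adjusted p = 0.430 and 0.359).

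Of 15 tested regulators, 1 fell. The prolactin receptor gene Prlr fell by 0.33 on the log2 scale (SE 0.10; limma, adjusted p = 0.0478), a call lost without BALB/c replicate 1, BALB/c replicate 3, B6 replicate 1 or B6 replicate 3 (adjusted p up to 0.200). It held in 5 of 16 alternatives and was also lost under total-read scaling, upper quartile scaling, a pseudocount of 0.25, no filter and limma-voom. Nr1h4, which encodes the bile acid receptor, was not called (limma, log2 fold 0.30, adjusted p = 0.240).

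**Figure D4:**
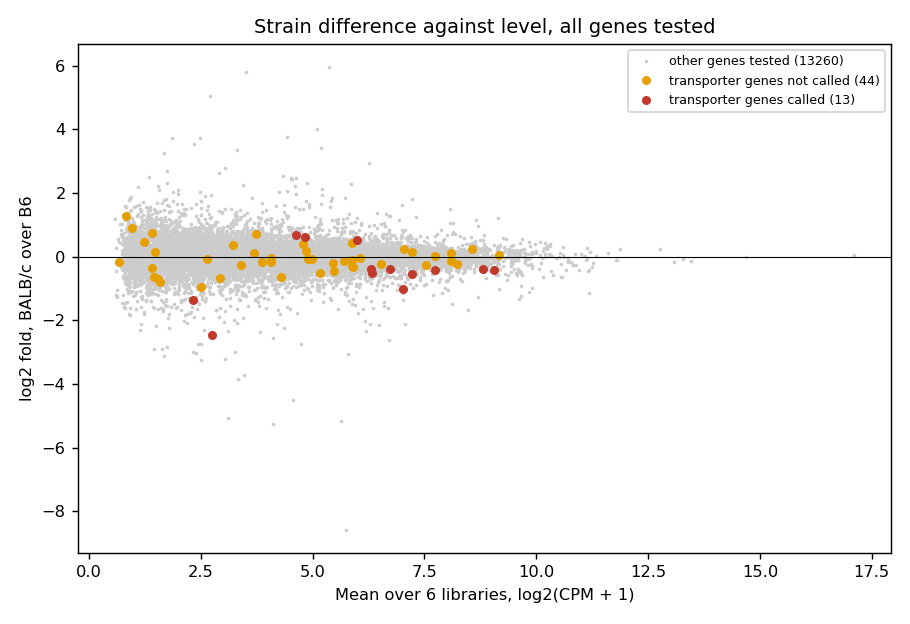
Log2 fold of BALB/c over B6 (y axis) against the mean log2(CPM + 1) of 6 libraries (x axis) for all 13317 genes tested, with the 13 called transporter genes in red and the 44 others tested in orange. Slc16a5 (-2.46) and Slc22a26 (-1.35) are the 2 called transporter genes at low levels, and the rest of the called genes lie between -1.02 and 0.68.

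Without the trend in the variance prior, 3 of the 8 supporting calls held, those of Slc5a12, Abcc2 and Slc9a3r1.

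Cell type markers were summed to set beside these values. The tubule markers Lrp2 (megalin) and Umod (uromodulin) were read in every library, Lrp2 at 1633, 1509.7 and 1657 CPM in BALB/c kidneys, against 1845, 1635 and 1754 CPM in B6 kidneys. The 10 proximal tubule markers came to 16699, 15913 and 16565 CPM in BALB/c kidneys, against 18429.6, 16635 and 19239 CPM in B6 kidneys; 9 of the 10 were not called and Pck1 fell. BALB/c sums lay mostly below B6 sums, with B6 replicate 2 between BALB/c replicates 1 and 3, the same library that was low for Slc22a12, Slc22a6 and Slc17a3. The S1 segment markers spanned 559 to 609 CPM in BALB/c kidneys and 564 to 641 CPM in B6 kidneys, and the S3 markers 2008 to 2277 CPM in BALB/c kidneys and 1811 to 2134 CPM in B6 kidneys. Within these lists markers moved in opposite directions. Of the S1 markers, Slc7a7 was called higher and Slc7a8 lower (limma, log2 folds 0.60 and -0.47). Of the S3 markers, Acy3 was called higher (0.55), and Slc7a12 (-0.40) and Slc7a13 (-1.62, at most 5.06 CPM) lower. Aadat and Acy3 made up most of the S3 sum. Distal nephron markers spanned 4344 to 4630.2 CPM in BALB/c kidneys and 4237 to 5737 CPM in B6 kidneys, with B6 replicate 2 the highest. Among them Pvalb was called higher, and Slc12a3 and Calb1 lower.

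Among the 57 tested transporter genes, BALB/c replicate 3 was the lowest or highest library of its strain for 82.5%, against 67.2% over all genes tested, and B6 replicate 2 for 80.7%, against 68.6% over all genes tested. B6 replicate 2 had 63.7% of the mean of the other 2 B6 libraries for Slc22a12, 57.5% for Slc17a3 and 70.2% for Slc22a6, but 142% for Slc22a13 and 98.4% for Slc22a8. The same library held 3.33 CPM of the fat marker Adipoq, where the other 5 libraries had at most 0.236 CPM. Its adipose markers summed to 41.5 CPM, against 3.30 to 8.81 CPM in BALB/c kidneys and 5.83 and 6.17 CPM in the other B6 kidneys. Of 6 adrenal markers, Cyp11b1, Cyp21a1 and Mc2r were at 0 in every library, and the list summed to 1.84 to 6.25 CPM in BALB/c kidneys and 2.52 to 4.04 CPM in B6 kidneys, nearly all of it Star. Immune markers came to 132 to 159 CPM in BALB/c kidneys and 71.1 to 97.5 CPM in B6 kidneys, and stromal markers to 353 to 415 CPM in BALB/c kidneys and 414 to 524 CPM in B6 kidneys. Csf1r made up most of the immune sum, at 103 to 133 CPM in BALB/c kidneys and 54.0 to 73.9 CPM in B6 kidneys. Csf1r and Lyz2 were called higher, while Ptprc, Cd68, Adgre1 and Ly6d were not called. Adgre1 and Ly6d had log2 folds of -0.74 and -0.23. Of the stromal markers, Col1a2 and Acta2 were called lower. Liver markers came to 95.1 to 138 CPM in BALB/c kidneys and 147 to 159 CPM in B6 kidneys. Most of that sum was Ttr, which was not called (limma, log2 fold -0.09, adjusted p = 0.746). Fgb and Apoa2 were called lower, while Alb, Apoc3 and Serpina3k were not called. Of the sex-linked genes, Xist had 188 to 193 CPM in BALB/c kidneys and 104 to 164 CPM in B6 kidneys, the Y-linked genes Kdm5d, Eif2s3y and Uty had no read in any library, and Ddx3y had 8, 0 and 0 reads in BALB/c kidneys, against 1, 1 and 0 reads in B6 kidneys. All 6 libraries, of both strains, thus had Xist reads and few or no Y-linked reads, the pattern of female mice. The part of other cell types, of fat in B6 replicate 2 and of sex hormones in the transporter values was not tested.

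**Figure D5:**
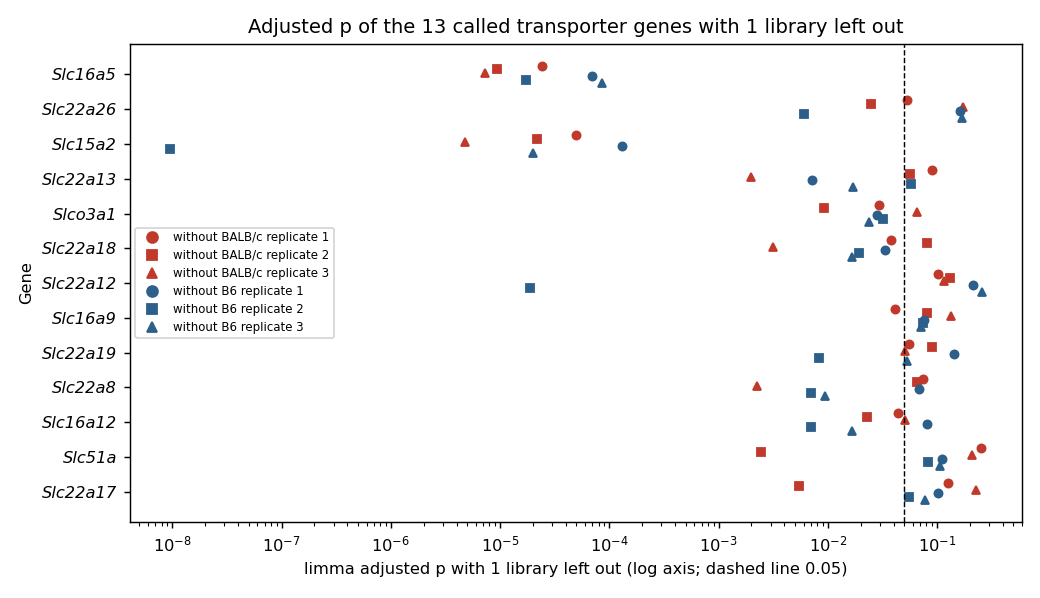
Limma adjusted p (x axis, log scale; dashed line at 0.05) of the 13 called transporter genes (y axis) when each library is left out, with BALB/c libraries in red and B6 libraries in blue. Slc16a5 and Slc15a2 stay left of the line in all 6 runs, while Slc22a12 stays left of it only without B6 replicate 2, at 1.88e-05.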

How the data were processed

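Whole kidney RNA of BALB/c and B6 mice was extracted with Trizol and sequenced from 3′ end libraries, 3 per strain, per the labels' protocols. Bowtie2, bedtools and the build mm10 are named in the submitters' processing notes; versions, annotation and strand use in counting were not given in the sources used here. As log2 values, 1 per symbol and library, the measurements were deposited by the authors. Their size shows the unit: 2 to the power of a value, minus 1, is a CPM with a further scaling factor per library. In every library 100% of the low values were whole multiples of 1 read within 0.1 read, a read being worth 0.0968 to 0.118 CPM.

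The deposited log2(CPM + 1) values were fitted with limma 3.58.1 in R 4.3.3, with strain as the term and the variance prior following expression level, over genes of at least 1 in at least 3 libraries. The prior contributed 18.4 degrees of freedom beside 4 residual ones. P-values are two-sided and were adjusted by Benjamini and Hochberg's method over all genes tested; the procedure was tested on simulated data. Overlaps and shared 3′ ends came from GENCODE M21 (GRCm38), with 50-base words every 5 bases of the last 300 bases. All 80 symbols were found there. Promoters and their coordinates are RefSeq's.

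Named were the called members, the 12 with the highest mean CPM and a list of well-known transporters. Up to 4 supporting genes per list were named by smallest p. Where outside this rule, Slc22a3, Slc16a4, Slc10a7, Slc22a29, Slc22a14, Slc16a3, Slc22a13b-ps, Slc9a3r2 and the genes with no read were named after their values were seen. Some genes that the rule names are not reported here. The members and lists were chosen with earlier results of these data known. P-values set the strain difference against the spread between libraries of a strain, drawn towards a prior from all genes tested. That prior had 18.4 degrees of freedom beside 4 residual ones, so most of the weight in each variance came from other genes. Intervals cover only what this spread and prior give. The alternatives were other scalings, pseudocounts, filters and variance priors, limma-voom on recovered reads, a replicate block, genes without overlap, and each library left out.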

Additional observations from a re-analysis of the deposited data

How the results depend on the processing

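The 30 named tested transporter genes were refitted under up to 17 alternatives each. Of the results, 418 kept direction and side of the threshold, 70 kept direction and lost the call, 6 gained it and 6 changed sign. The 418 include uncalled genes that stayed uncalled, and all 70 losses fell on the 13 called genes. Slc22a12 kept its call in 2 of 16 alternatives and Slc51a in 6 of 16, while Slc16a5 and Slc15a2 kept theirs in all. Counts of calls were 3 higher and 10 lower for the transporter genes, and 2 higher and 6 lower for the supporting genes. Without the trend in the variance prior they were 1 and 2, and 1 and 2. With no filter beyond 1 read, 3 supporting genes were lower, and among genes without overlap or shared 3′ ends 1 supporting gene was higher. With each library left out, the transporter counts spanned 0 to 3 higher and 4 to 11 lower, and the supporting counts 2 to 2 higher and 3 to 7 lower. The sign changes were all of uncalled genes with 1 library left out: without BALB/c replicate 3, Slc22a2 had a log2 fold of -0.01 and Slco2b1 of 0.03; without B6 replicate 2, Slc22a2 of -0.0047, Slco2b1 of 0.02 and Slco4c1 of 0.16; without B6 replicate 3, Slc10a2 of 0.0002. Over the 6 runs with a library left out, the log2 fold spanned -0.01 to 0.09 for Slc22a2, -0.44 to 0.03 for Slco2b1, -0.74 to 0.16 for Slco4c1 and -0.33 to 0.0002 for Slc10a2. The cause of these changes was not tested. With the replicate number as a block, 2 transporter genes were higher and 7 lower. Over the genes tested, the deviations of same-numbered libraries from their strain means correlated at 0.01, -0.06 and -0.08, so the numbers were not taken as pairs. Genes of a few CPM, such as Slc22a26 and Slco4c1, rest on few reads.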
